A study of Arabidopsis thaliana with 3 samples.

Results

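Of the 3552 DNA regions bound by the floral MADS complex SEP3-AG(AP1-I), 263 (7.40%, 95% Wilson interval 6.59 to 8.31) had their midpoint in a coding exon, that is, in a CDS segment of any mRNA of a protein-coding gene of the TAIR10 annotation. Coding sequence took precedence over every other class, so that a midpoint in the coding part of 1 transcript counted as coding even where another transcript spliced it out. The complex pairs SEPALLATA3 (SEP3) with a chimera of AGAMOUS (AG) whose I domain is that of APETALA1 (AP1), and the sample labels write it SEP3-AG(API-I). Both proteins were made in vitro, SEP3 with a FLAG tag and the chimera with a Myc tag (5XMyC), purified by one tag after the other, and incubated with sheared genomic DNA of Arabidopsis thaliana grown on Murashige and Skoog medium in long days (seq-DAP-seq). The deposited list joins 3 replicates into 1 set of regions of 400 bp with no height or read count, so no spread between replicates can be given, and all intervals below are over regions, boxes or windows. As the DNA was purified before binding, the regions describe naked DNA and not chromatin.

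MADS transcription factors bind the CArG box, a palindrome of CC, a run of A and T, and GG, as dimers that can join into tetramers over a pair of boxes. SEP3, AG and AP1 specify the identity of floral organs, and their regulatory sites are usually sought upstream of genes and in introns. Coding sequence is under a second constraint, as its codons must also spell a protein, and it is richer in G and C than the rest of the genome.

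The highest-scoring sites of the coding peaks show the motif at its clearest. A site was scored in bits (the log2 odds of the site under the matrix against the background bases) with a palindromic matrix of 16 bp. The matrix was fitted to the 3289 peaks outside coding exons, so that the coding peaks took no part in building it. The sequences below run 5′ to 3′ on the strand of the gene and were read from the TAIR10 reference. Capitals mark the 10 bp core at the place of the CArG box, and each stretch is 30 bp.
BEE3: gctcaagtttCCATAAATGGaaatatttcg
SK21: gtgaacttttCCATAAATGGcaacggaact
AT4G37190: cgcaattttgCCATTTTTGGaaactagaat
AT2G31985: ggaaagttttCCATTTTTGGcaagttgatt
DCL2: tgctccttttCCAAATTTAGaaactttagt
AT5G25440: gcaagagtttCCTATTTTGGaaagccaaaa
CDC2: aatctgctttCCCTAAATGGaaaccaacgg
CBL1: ttacaaattgCCTTTTATGGaaaccaaaga
The site in BEE3 (AT1G73830), which encodes a basic helix-loop-helix factor induced by brassinosteroid, scored 17.8 bits in the peak chr1:27760168-27760567, in the first of 6 coding exons. The same core stood in SK21 (AT3G61415), a relative of the SKP1 subunit of ubiquitin ligases, at 17.2 bits in chr3:22722966-22723365, 97.3% of the way along the coding sequence. The sites in AT4G37190 (chr4:17509113-17509512) and AT2G31985 (chr2:13614682-13615081) both scored 17.04 bits. DCL2 (AT3G03300), a Dicer-like enzyme that makes small interfering RNAs, held a site of 16.4 bits in its first coding exon (chr3:774187-774586), and the protein kinase gene AT5G25440 one of 16.4 bits (chr5:8855278-8855677). The site of the cell cycle kinase CDC2 (AT3G48750, chr3:18073454-18073853), at 16.2 bits, has C in place of an A or T in the core, and that of the calcium sensor CBL1 (AT4G17615, chr4:9818680-9819079) scored 16.1 bits. In each of these 8 genes the core lay wholly within coding sequence and within 27 bp of the peak midpoint. The other 4 of the 12 highest scores, 16.1 to 16.4 bits, lay in AT1G67310, a calmodulin-binding transcription activator, AT1G76280, AT2G28510, a Dof zinc finger gene, and AT4G10320, a tRNA synthetase gene.

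Coding exons had a lower density of peaks than each of the other classes of DNA. They make up 28.3% of the nuclear genome and held 7.81 peaks per Mb, against 38.5 per Mb over all other DNA, 47.3 per Mb in untranslated exon parts, 39.8 per Mb in introns, 68.3 per Mb within 500 bp upstream of gene starts and 20.6 per Mb in intergenic DNA. Coding peaks were spread over all 5 chromosomes, from 6.75 per Mb of coding DNA on chromosome 3 to 9.49 per Mb on chromosome 4. Coding DNA also differed in base composition, with a median GC content of 40.8% in unbound coding windows of 400 bp against 34.2% in unbound windows elsewhere, while the coding peaks had a median of 38.8% and the other peaks 32%. Compared by the class of their own midpoints, peaks fell in coding rather than other DNA with an odds ratio of 0.202 (95% interval 0.178 to 0.229) without regard to GC content and 0.389 (0.339 to 0.447, p = 5.5e-42, n = 263 coding peaks, Mantel-Haenszel over strata of 2 GC points) at like GC content. Against introns and untranslated exons alone the odds ratio was 0.299 (0.258 to 0.348). These odds ratios by the class of the peak midpoint were added after seeing the data. The comparison as planned took the class of each 400 bp tile by the tile's own midpoint, which puts many peaks of neighbouring introns and untranslated exons into coding tiles (519 coding tiles held the midpoint of a peak of any class). It gave 0.882 (0.792 to 0.984, p = 0.026, n = 519) at like GC content and lost the call without chromosome 1 (0.898), chromosome 2 (0.901) or chromosome 5 (0.885).

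**Figure D1:**
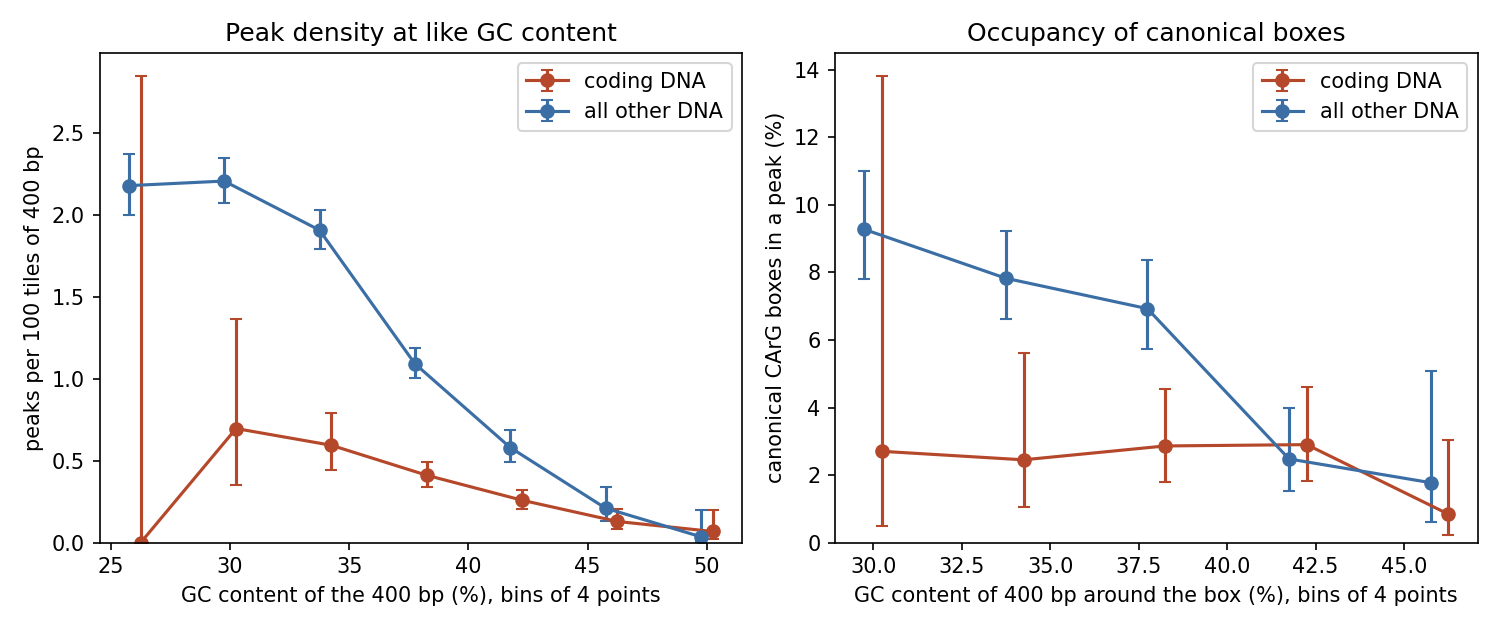
Left, peaks per 100 tiles of 400 bp by the GC content of the 400 bp, for peaks and tiles with a coding midpoint and for all others. Right, the percentage of canonical CArG boxes that lie within 50 bp of a peak midpoint, by the GC content of the 400 bp around the box (bins from 28 to 48%). Points stand at bin centres, shifted slightly apart, and bars are 95% Wilson intervals. Between 32 and 36% GC, 0.594 peaks per 100 coding tiles stand against 1.91 elsewhere, and from 44% GC upward the intervals overlap.

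At the level of single boxes, a canonical CArG box (CC, 6 bases of A or T, GG) was less often bound in coding DNA. Of the 1734 canonical boxes centred in coding exons, 43 (2.48%, interval 1.85 to 3.32) lay within 50 bp of the midpoint of a peak of any class, against 440 of the 6007 boxes elsewhere (7.32%). Boxes in introns were bound in 9.61% of cases and those in untranslated exon parts in 7.69%. The odds ratio was 0.322 (two-sided Fisher's exact test, p = 1.3e-15), and 0.472 (0.333 to 0.668, p = 2.4e-05, Mantel-Haenszel) over strata of 4 GC points. Over strata of the matrix score, which takes in the flanks of the box, it was 0.366, and over strata of GC content and score together 0.454 (0.302 to 0.681). Among boxes unique over 60 bp, which 98.9% of those in coding DNA were, it was 0.446. These last 3 settings were added after seeing the data.

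In AT-rich surroundings coding boxes were bound less often than others, and in GC-rich ones the interval of the odds ratio held 1. Where the 400 bp around the box had under 40% GC, 23 of 838 coding boxes (2.74%) were bound against 420 of 5131 others (8.19%), an odds ratio of 0.354 (0.228 to 0.551). Where it had 40% GC or more, 20 of 896 coding boxes (2.23%) and 20 of 876 others (2.28%) were bound, with an odds ratio of 1.03 (0.549 to 1.92). The odds ratios differed by a factor of 0.345 (0.160 to 0.742, p = 0.0064 for their difference, n = 1734 coding boxes). The split at 40% was chosen after the values were seen.

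Sites of the whole matrix showed the same order at low and middle scores. Of matrix sites in coding DNA with 10 to 11 bits, 39 of 1293 (3.02%) lay in a peak, against 459 of 6300 (7.29%) elsewhere. Between 13 and 14 bits the values were 19 of 162 (11.7%) and 323 of 910 (35.5%). From 14 bits upward the order was less clear, with 51 of 119 coding sites (42.9%, interval 34.3 to 51.8) and 356 of 748 others (47.6%) in a peak. At 16 bits or more, all 14 coding sites lay in a peak (interval 78.5 to 100%), whereas 63 of 109 others did (57.8%, 48.4 to 66.7). Over strata of score and GC content, the odds ratio for coding against other sites was 0.518 (0.433 to 0.621, Mantel-Haenszel, over all sites above 9.36 bits), a setting added after seeing the data.

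**Figure D2:**
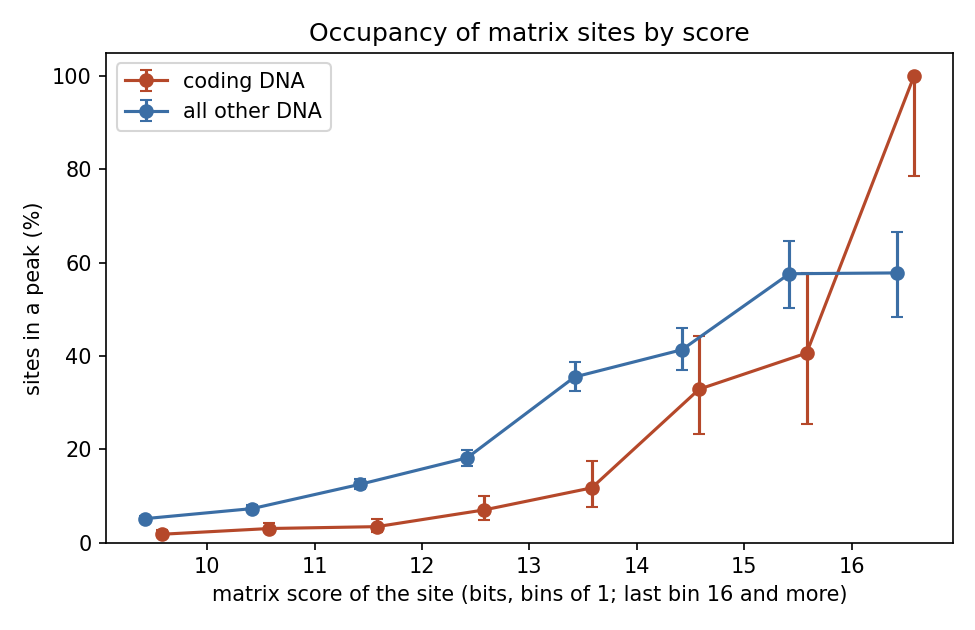
Percentage of matrix sites that lie within 50 bp of a peak midpoint, by matrix score in bins of 1 bit (points at bin centres, shifted slightly apart; the last bin holds 16 bits and more), for sites centred in coding DNA and in all other DNA. Bars are 95% Wilson intervals. Coding sites lie below the others up to the bin of 15 bits, at 11.7% against 35.5% in the bin of 13 bits. In the bins of 14 and 15 bits the intervals overlap. All 14 coding sites of the last bin are in a peak.

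A CArG box set coding peaks apart from unbound coding DNA. A canonical box was present in 53 of the 263 (20.2%, interval 15.8 to 25.4), against 15.6% of the 3289 other peaks (odds ratio 1.36, Fisher's exact test, p = 0.066). The difference did not pass the test, nor did those from peaks in untranslated exons (16%, adjusted p = 0.21), introns (16.7%, adjusted p = 0.22) and upstream DNA to 3000 bp (14.3%, adjusted p = 0.058, Fisher's exact tests with Benjamini-Hochberg adjustment over 3 comparisons). It passed without chromosome 1 (odds ratio 1.57) or chromosome 2 (1.47), and was 1.19 (0.843 to 1.69) over strata of GC content. In unbound coding windows of 400 bp a canonical box was found in 2.00%, so that the odds of a box were 12.3 times higher in the coding peaks (9.17 to 16.8, Fisher's exact test, p = 4.7e-36). Outside coding DNA, where unbound windows held a box in 2.47%, the odds ratio was 7.30 (6.62 to 8.06). The ratio between the odds ratios was 1.70 (1.24 to 2.34, Woolf test, p = 0.0011, n = 263). It was not taken at like GC content.

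A looser form of the box, in which the second base of the core may also be T and the base mirroring it may also be A, gave the opposite order. It was present in 115 coding peaks (43.7%) against 57.1% of the others (odds ratio 0.584, Fisher's exact test, p = 3.3e-05). Over strata of GC content this was 0.772 (0.583 to 1.02, p = 0.072, n = 263). The looser form was found in 9.14% of unbound coding windows, and its odds ratio between peaks and unbound windows was 7.73 in coding and 7.12 in other DNA (ratio 1.09, 0.843 to 1.40, Woolf test, p = 0.52, n = 263). With at most 1 mismatch to the canonical box, 81.7% of coding peaks and 79.8% of others held one.

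The best sites of coding and other peaks differed most at the second base of the core. Counted over both arms of the palindrome, C at the fifth position of the matrix, the second base of the core, was found in 399 of 526 arms (75.9%) of coding peaks and in 3936 of 6578 arms (59.8%) of other peaks (odds ratio 2.11, Fisher's exact test, adjusted p = 7.9e-13 over 8 positions). The remaining arms of coding peaks mostly carried T there. C at the first base of the core was also more frequent (93.7% against 89.5%, Fisher's exact test, adjusted p = 0.0063), and T at the seventh position of the matrix less so (41.8% against 47.9%, adjusted p = 0.023). At the other 5 positions the adjusted p was 0.106 or higher. Within the GC range of the middle 80% of coding peaks (34.2 to 43.5%), the excess of C at the second base of the core remained (76.1% against 63.1%, Fisher's exact test, adjusted p = 1.6e-06), while the differences at the first base (93.4% against 91.0%, adjusted p = 0.21) and at the seventh position of the matrix (adjusted p = 0.066) no longer passed, in a setting added after seeing the data. A matrix fitted to the coding peaks also held more C and G further inside the core, where the canonical box has A or T. At the seventh position it had 10.2% C and 12.3% G, against 5.46% and 5.50% in the matrix of other peaks, and at the sixth 12.5% C and 9.70% G against 9.21% and 5.30%. These shares of C and G were not tested. The arms of a site are not independent, so these p-values can be too small.

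**Figure D3:**
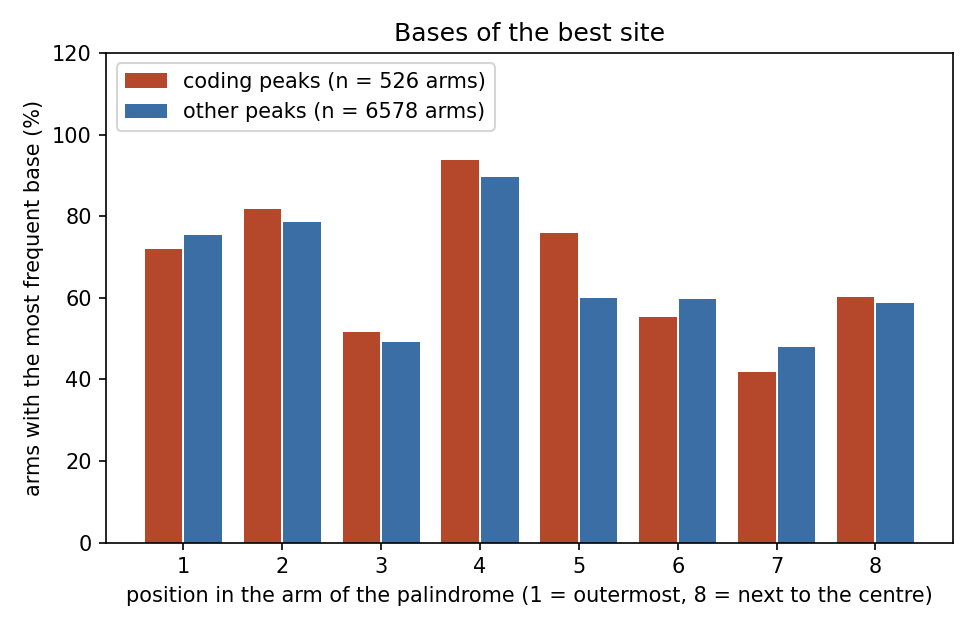
Percentage of arms of the best site with the most frequent base at each of the 8 positions of an arm, for coding peaks (526 arms) and other peaks (6578 arms). Position 4 is the first base of the 10 bp core. The tallest difference is at position 5, with 75.9% C in coding peaks against 59.8%.

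By the form of its core, the best site was canonical in 47 coding peaks (17.9% against 12.2% of others, Fisher's exact test, p = 0.012) and of the looser but not the canonical form in 43 (16.3% against 30.6%, p = 3.6e-07). It had exactly 1 mismatch to the canonical box, outside the looser form, in 62 (23.6% against 16.97%), and none of these in 111 (42.2% against 40.2%). The median best score was 10.8 bits (lowest 0.358, highest 17.8), against 10.6 bits in other peaks and 4.65 bits in unbound coding windows. Above 7.78 bits, a level passed by 1 site in 2000 bp over the whole genome, 221 coding peaks (84.0%) held at least 1 site against 85.01% of others (odds ratio 0.928, Fisher's exact test, p = 0.65). A site count of 2 or more was found in 66 (25.1% against 30.8%, odds ratio 0.753, Fisher's exact test, p = 0.060), and the difference passed at the looser threshold of 1 site per 1000 bp (odds ratio 0.711, p = 0.0086). At like GC content, added after seeing the data, the odds ratios at 7.78 bits were 1.15 for at least 1 site and 0.960 for 2 or more.

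The bound site lay at the middle of the peak. The best site was within 25 bp of the midpoint in 184 coding peaks (70.0%), with a median distance of 16 bp, as against 68.4% and 17 bp for other peaks. Of the 54 canonical boxes in coding peaks, 45 lay within 50 bp of the midpoint. Not every site was itself coding, as the best site was centred in coding sequence in 217 of the 263 peaks (82.5%), in an intron in 33, in an untranslated exon part in 10 and upstream of a gene in 3. The median peak had 265 of its 400 bp in coding sequence, and 53 peaks were coding throughout.

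**Figure D4:**
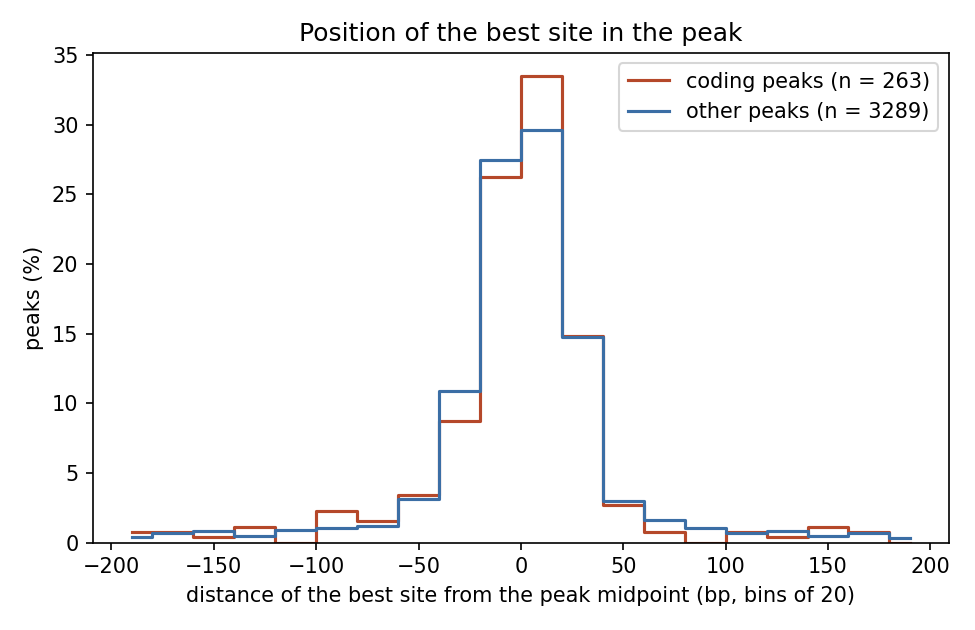
Distance of the best matrix site from the peak midpoint in bins of 20 bp, as a percentage of the 263 coding peaks and of the 3289 other peaks. Both curves peak at the midpoint, and 70.0% of coding peaks have their best site within 25 bp of it.

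Along the coding sequence, no difference between the peaks and unbound coding windows passed the test. Divided into first, middle and last stretches of equal length, the coding sequence held 79, 92 and 92 peaks (30.04%, 34.98% and 34.98%), against 33.2%, 33.0% and 33.7% of 82964 unbound windows (Fisher's exact tests, adjusted p = 0.70 for each). Of the peaks, 132 (50.2%) lay in internal coding exons, 38 (14.45%) in the first of several, 44 (16.7%) in the last of several and 49 (18.6%) in genes with a single coding exon. The shares of unbound windows, in the same order, were 45.1%, 18.5%, 19.5% and 16.9%, and the differences were not tested. The exon at the midpoint had between 21 and 5699 coding bp, with a median of 306. Within 1000 bp upstream of the start of another protein-coding gene lay 26 coding peaks (9.89%) and 11.95% of unbound windows (odds ratio 0.808, Fisher's exact test, p = 0.34), and within 500 bp 11 peaks (4.18% against 2.90%, p = 0.20). The interval for a share at 1000 bp ran from 6.84 to 14.1%. One of the 11 was the peak in CBL1, 460 bp upstream of AT4G17616.

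The reading frame of the bound boxes did not differ detectably from that of unbound ones. Of 37 canonical boxes that lay whole in 1 coding segment and within 50 bp of the midpoint of a peak, 16 began at the first base of a codon, 15 at the second and 6 at the third. Among 1546 coding boxes in no peak the shares were 42.5%, 39.1% and 18.4% (Fisher's exact tests, adjusted p = 1 for each). With so few boxes the odds ratio for the third base, 0.860, has little precision. Over the best sites of the coding peaks, 188 cores lay whole in 1 coding segment, of which 59 began at the first, 93 at the second and 36 at the third base of a codon. No unbound matrix sites were set beside these counts, so they cannot show a preference for a frame.

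A protein-coding gene had a coding peak in 0.955% of cases (262 of 27444), and the coding sequence of these genes was longer than that of all genes, with a median of 1549.5 bp against 1047 bp. A single midpoint lay in the coding sequence of more than 1 gene (RLP53 and AT5G27065), and 2 genes had 2 coding peaks each. In AT4G13620, annotated as an integrase-type DNA-binding protein, the peaks chr4:7932102-7932501 and chr4:7932470-7932869 overlapped and their best sites scored 14.9 and 4.90 bits. In AT5G03700, a lectin gene, they scored 15.1 and 7.97 bits, the first in the untranslated part of the exon. The coding peak in AT3G50190 held 2 canonical boxes (chr3:18609024-18609423), and its best site, 137 bp from the midpoint, lay in the untranslated part of the exon.

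Several coding peaks lay in genes of receptor-like proteins, immune and developmental receptors with leucine-rich repeats outside the cell and no kinase inside. The list was made after the values were seen and has no test. Of 52 genes with such a product name, 8 had a coding peak (15.4%), beside 0.955% of all protein-coding genes. Their coding sequence held 65.8 peaks per Mb, against 7.85 per Mb over all genes, and 296 matrix sites above 9.36 bits per Mb against 103. Of these 36 sites, 9 (25%) lay in a peak, compared with 4.08% of 3459 sites in the coding sequence of all genes. Genes grouped by product name under leucine-rich repeat, a group that does not take in the receptor-like proteins, had a coding peak in 6 of 422 (1.42%), at 5.87 peaks per Mb. For this group the share was above that of all genes and the density below it. In a set holding both kinds of gene, 15 of 476 (3.15%) had a coding peak, at 13.04 peaks per Mb. The sites of the receptor-like proteins are shown with 2 of the kinase receptors of the same repeat class, since several of these sites share most of their bases.
RLP23: tcactcccttCCAAATTTGGcaatctccat
RLP24: tcacttccttCCAAATTTGGcaatctcaac
RLP27: caagttccttCCTCATTTAGtaaccttagc
RLP28: caagttccttCCTCATTTAGtaacctaagt
RLP26: caagttccttCCTCAATTAGtaaccttatc
RLP53: cagattccatCTTTTATTGGaaacctttct
AT4G08850: ccaataccttCTTCTTTTGGaaaccttacc
PEPR1: actataccttCCACTTTAGGaaactgtacc
RLP7: ctttatgttaCCTAATTTAGaaacctttta
RLP54: cctaaagtttCTAAATGTGGaaggaaacca
RLP23 (AT2G32680), a receptor of microbial peptides, and RLP24 (AT2G33020) had identical cores of 14.8 bits in the peaks chr2:13861743-13862142 and chr2:14015634-14016033, and shared 83.3% of 120 bp around the core. RLP27 and RLP28 had the same core of 10.2 bits in chr2:14025867-14026266 and chr2:14032220-14032619, and that of RLP26 (chr2:14022119-14022518) scored 9.64 bits. RLP7 on chromosome 1 held a site of 14.6 bits, and RLP53 and RLP54 on chromosome 5 sites of 9.35 and 11.99 bits. In RLP23, RLP24, RLP26, RLP27, RLP28, RLP53, PEPR1, the receptor of an endogenous danger peptide, and AT4G08850 the core began at the second base of a codon, so that the first bases of the core closed that codon. RLP7 and RLP54 began at the first base, as did AT3G28450, a leucine-rich repeat kinase gene that is not shown (12.8 bits). Over 15 coding peaks in genes listed by name as leucine-rich repeat or receptor-like protein genes, 14 cores lay whole in coding sequence. Of these, 4 began at the first, 9 at the second and 1 at the third base of a codon. The core at the third base was that of AT1G30240, which is named a proline-, glutamic acid/leucine-rich protein and not for the repeat. Peaks in related genes are not independent of one another.

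Some coding peaks resembled one another around the core. Over 120 bp around the core, without gaps, 12 pairs of coding peaks involving 21 members were at least 55% identical, a limit chosen after the values were seen, where the median over all pairs was 30%. The highest identity, 85.8%, was between AT2G31985 and AT1G05510, both annotated with the domain DUF1264, followed by pairs of receptor-like proteins. PRORP2 (AT2G16650) and PRORP3 (AT4G21900), which cut the leader from transfer RNA precursors, were 70.8% identical, and the neighbouring lipase genes AT1G28610 and AT1G28600 79.2%. The sites of these pairs show which bases of the core differed while both were bound.
AT2G31985: ggaaagttttCCATTTTTGGcaagttgatt
AT1G05510: ggaaagtttaCCATTTCTGGcaagtcgatt
PRORP2: gtacttttttCCAAAAGTGGaaagaaagac
PRORP3: acagtttcttCCAAAAATGGaaagaaagac
AT1G28610: ttttatggatCTAAAAATGGaaactttgag
AT1G28600: tactttggatCTAAAAATAGaaactttgat
In PRORP2 the core scored 15.7 bits and in PRORP3, where it is canonical, 15.1 bits. In each pair shown here both cores began at the same base of a codon. Related coding stretches that align without gaps can share the frame whether bound or not, so this says nothing about binding.

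A part of the sites lay across the end of an exon, so that the intron supplied bases of the motif. The 16 bp of the best site crossed an exon-intron boundary in 37 of the 263 peaks, at a splice donor in 28 and at an acceptor in 9. Crossing a boundary is not particular to peaks. Among all sites above 9.36 bits that touch coding sequence, in a peak or not, 444 held a donor, 381 an acceptor and 3624 no boundary. In 27 of the 28 peaks with a donor in the best site, the boundary followed the first G of a GG, so that the second G was the first base of the intron. Examples are shown with the GG that holds the boundary at the end of the capitals.
ATBET12: tcatgtattaCCTTATTAGGtaaaatacac
AT1G75730: atctaagcttCCAAAAAAGGtaacttcttc
CHX21: gcgattttttCCAAATCTGGtaactaaata
NAC004: gtccttgtttCCTAATCAGGtaatttttca
AT1G77660: ttggttcttaCCATTTCAGGtaataacaaa
AT1G21920: ttggttcttaCCATTTCAGGtatgtatctg
The site in CHX21, a cation/proton exchanger gene, scored 15.5 bits and that in ATBET12, a SNARE gene, 14.6 bits. AT1G77660 and AT1G21920, related genes of the SET7/9 family, had the same core at the same boundary, at 13.3 and 11 bits. Among all sites above 9.36 bits that touch coding sequence, 38 of 444 (8.56%, interval 6.30 to 11.5) with a donor inside lay in a peak, against 153 of 3624 (4.22%, 3.61 to 4.93) with no boundary and 23 of 381 (6.04%, 4.06 to 8.90) with an acceptor. The grouping by boundary was chosen after seeing the sites. These shares were not tested and were not taken at like matrix score or GC content.

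The coding sequence of flower genes held 2 of the coding peaks. Of 127 genes in 6 lists (floral MADS genes, other MIKC MADS genes, flowering time and meristem, sepal and petal, stamen and pollen, carpel and ovule), 51 (40.2%) had a peak of any class from 3000 bp upstream to 1000 bp downstream, against 18.0% of all genes, and 2 had a coding peak (0.955% of all genes did). Their coding sequence comes to 144 kb, so that few peaks could fall there at 7.85 per Mb. None of the 15 floral MADS genes, the 23 other MIKC MADS genes or the 24 photosynthesis genes taken as a control list had a coding peak. The 2 genes were MS1 and BOP1.
MS1: ctacgcttttCCCGAAAAGGaaagtttctc
BOP1: gagaaatttcCTTAAAATGGaatgatgctt
MS1 (AT5G22260), a PHD finger regulator of the tapetum and of pollen development, had a peak at chr5:7369269-7369668 in the second of 3 coding exons, 20.4% along the coding sequence, with a site of 13.1 bits whose core departs from the canonical box at more than 1 base. BOP1 (AT3G57130), a BTB-ankyrin coactivator that patterns leaves and flowers, had a peak at chr3:21148389-21148788, with a site of 10.7 bits of the looser form. Its midpoint was 92.5% along a coding sequence of 549 bp, the longest among the mRNAs whose coding part holds the midpoint. Other mRNAs of a gene can be longer and splice such a stretch out. Only 78 of the 400 bp of this peak were coding. In MS1 and in BOP1 the core began at the first base of a codon.

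Genes were also grouped by words in their product names, which miss members that are named otherwise (BEE3 is not among those found as basic helix-loop-helix genes), and no group was tested. Over all protein-coding genes, 0.955% had a coding peak, at 7.85 peaks per Mb. Genes named for pentatricopeptide repeats had a coding peak in 6 of 313 (1.92%), those with kinase in the name in 15 of 1388 (1.08%), transporters or permeases in 8 of 522 (1.53%) and F-box genes in 4 of 653 (0.613%). A group found by the word histone had 2 of 51 (3.92%), or 75.9 peaks per Mb over 0.026 Mb. Both are named for a histone methyltransferase family and not as histones. They are the related genes AT1G77660 and AT1G21920, which have the same core at the same splice donor. SUVR5, named a histone-lysine methyltransferase, also had a coding peak and is not in this count. NAC genes, plant transcription factors picked after the values were seen, had 4 of 105 (3.81%), or 39.0 peaks per Mb. The top site among them was that of NAC076 (AT4G36160), a regulator of xylem vessel formation, with 14.4 bits, followed by NAC075 (13.8), NAC004 (13.2) and NAC058 (12.2). None of 120 genes named for the MADS box, 208 named for a homeobox or homeodomain or 344 named as ribosomal proteins had one. Their coding sequence comes to 0.091, 0.250 and 0.203 Mb, so that few peaks could fall there at 7.85 per Mb. Other genes with the highest score found by such words were AT2G02148 (pentatricopeptide repeat, 14.98 bits), CPD, a cytochrome P450 of brassinosteroid synthesis (15.1 bits, centred in an intron), UFD1 (ubiquitin, 12.98 bits) and RPS6 (disease resistance, 11.7 bits, centred in an intron). The MYB-related genes MYBL2 and MYB13 had sites of 12.1 and 6.64 bits, MYBL2 being named after its value was seen, and WRKY33 one of 8.42 bits.

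MADS tetramers can hold a pair of sites, and 48 pairs with a distance of 20 to 80 bp lay in coding peaks. At 25 bp there were 2, in RLP54 (AT5G40170, sum 20.5 bits) and AT5G02540 (19.4 bits), at 34 bp 1, in AT1G62320 (18.8 bits), and at 47 and 57 bp none, against 21, 18, 13 and 10 of 659 pairs in other peaks. The pairs at 25 bp are shown in the order of the gene.
RLP54 first: cctaaagtttCTAAATGTGGaaggaaacca
RLP54 second: acgacactttCCCTTTCTGGctgaaggctt
AT5G02540 first: ccttttaattCCGTTTTTGGcagggttcct
AT5G02540 second: tcttcagcttCTACTTGTGGaaaaatatac
Counts of this size describe these peaks and cannot rank the distances.

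At the other end, 42 coding peaks (15.97%) held no site above 7.78 bits, against 14.99% of other peaks. The 5 lowest best scores were those of AT1G54215, a proline-rich protein gene (0.358 bits), AT4G33660 (2.09 bits), AT5G01170 (2.58 bits), TBL12 (4.07 bits) and AT2G20830 (4.27 bits). In 4 of them the best match lay 88 to 172 bp from the midpoint, and in TBL12 10 bp. The GC content of AT1G54215 was 54.0%, within the range of 28.8 to 56.5% over all coding peaks. Reads cannot be placed with certainty where DNA repeats, and 4 coding peaks (in ARV1, AT1G50870, AT3G57800 and KT2/3) shared a stretch of 50 bp with another peak.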

How the data were processed

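Seq-DAP-seq was done in 3 replicates. The authors mapped the reads to TAIR10, called peaks per replicate against input DNA, kept those found in the replicates together, cut apart peaks that had more than 1 maximum, and set every peak to 400 bp around its maximum. Bowtie2, SAMtools and MACS2 stand in the submitters' processing notes (not given in the sources used here: versions). The file the authors deposited lists positions alone. The strictness of peak calling sets which weak sites appear, and the fixed width sets how many sites fit. Coordinates count from 1. Sequences and genes are those of the NCBI reference of TAIR10, and the last peak of each chromosome lay within it.

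Each midpoint was classed as coding, untranslated exon, intron, upstream or intergenic, in that order. The matrix was fitted by expectation maximisation in 30 iterations to the peaks outside coding exons. Fisher's exact tests were two-sided, with Mantel-Haenszel odds ratios over GC strata, Woolf tests, Benjamini-Hochberg adjustment and 95% Wilson intervals. Unbound windows were all 400 bp tiles that overlap no peak. Genes named are the 12 highest scores, the members of the gene lists, genes with several coding peaks, peaks with several canonical boxes, the best pairs at 25, 34, 47 and 57 bp, the 5 lowest scores and the best of each family found by words in product names. The values of receptor-like proteins, related pairs, NAC genes and splice sites were known when these were picked. The members and lists were chosen with earlier results of these data known. On simulated data, the matrix differed from the planted shares by at most 3.17 percentage points, and 93% of 200 Mantel-Haenszel intervals held the true odds ratio. All 153 list symbols matched. Python 3.11.15, numpy 2.4.6, scipy 1.17.1 and matplotlib 3.10.9 were used.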

Additional observations from a re-analysis of the deposited data

Results flagged for a closer look

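Effects under the same contrast differed between kinds of DNA in 3 results. A canonical CArG box set peaks apart from unbound windows more strongly in coding DNA than in other DNA, with a ratio of odds ratios of 1.70 (1.24 to 2.34, Woolf test, p = 0.0011, n = 263). The same was found for a box with at most 1 mismatch, at 1.59 (1.15 to 2.19, Woolf test, p = 0.0051, n = 263), and not for the looser form (1.09). None of these ratios was taken at like GC content. The odds ratio of occupancy of canonical boxes, coding over other DNA, was 0.345 times as large in surroundings under 40% GC as at 40% GC or more (0.160 to 0.742, p = 0.0064, n = 1734), with a split chosen after the values were seen. At 40% GC or more, 20 bound boxes stood on each side, so that the interval there ran from 0.549 to 1.92.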

How the results depend on the processing

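Occupancy of canonical boxes kept its direction and its call in every setting run over the whole GC range, from 0.322 without strata to 0.537 without chromosome 2. Among boxes in surroundings of 40% GC or more alone it kept neither (1.03, 0.549 to 1.92). The share of coding peaks with a box turned from an odds ratio of 1.36 to 0.584 with the looser form, and passed the test without chromosome 1 (1.57) or chromosome 2 (1.47). The ratio of odds ratios, coding over other DNA, fell to 1.09 with the looser form. The density of peaks by tile class lost its call without chromosome 1 (0.898), 2 (0.901) or 5 (0.885). A site count of 2 or more passed at 1 site per 1000 bp (0.711). For the bases of the best site, the first and second positions of the matrix passed where only sites wholly in coding sequence were taken (0.769 and 1.38), and the fourth and seventh no longer passed within the GC range (1.40 and 0.771). The causes were not tested. The other 80 settings kept their side of the threshold, though an odds ratio that did not pass could lie on either side of 1 (0.928 against 1.15 at like GC content for at least 1 matrix site). Leaving out a replicate was not possible, as the list joins them. No paired analysis was possible because there is 1 group. Binding strength and calls per replicate were not analysed here, and regions on 1 chromosome or in related genes are not independent, so p-values can be too small.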
